A study of Nicotiana tabacum with 30 samples.

Results

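The step from 4 to 8 h of drought in leaves of the tobacco cultivar K326 (Nicotiana tabacum) was examined as the 3 libraries of K326 at 8 h against the 3 libraries of K326 at 4 h, 6 of the 30 libraries of the series. The other libraries were K326 at 0, 1 and 2 h and M28 at 0, 1, 2, 4 and 8 h, with 3 in each group. M28 is a line derived from K326 by treatment with ethyl methanesulfonate, a chemical mutagen, and the submitters describe it as more resistant to drought. K326 at 8 h and K326 at 4 h carried no labelled mutation and differed in their time under drought, and K326 at 0 h was sampled before it. Plants of both genotypes grew in pots of soil under a cycle of 16 h light and 8 h dark, with several seedlings to a pot. The protocol names natural drought and drought simulated with 200 mM mannitol, and the library labels do not say which was used for each. No watered library at 4 or 8 h was used here, and the hour of day at sampling is not given in the sources used here. Time under drought, plant age and time of day therefore cannot be told apart in any change between 4 and 8 h.

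When soil or a solute holds water back, leaves close their stomata and raise the hormone abscisic acid. Transcription factors of several families then induce genes for protective proteins, osmolytes and hormone turnover, while many genes of photosynthesis and growth are expressed less. Leaf mRNAs also follow light and the circadian clock, among them those of the light-harvesting proteins. The expression table gives 35519 gene IDs without names or descriptions, and 0 of them were found in the RefSeq gene table of the assembly ASM71507v2. No gene function, sequence or leaf marker could therefore be assigned here, and the leaf label was not checked against markers. Genes are described by ID, by level and by their course in time.

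Values were FPKM, fragments per kilobase of gene scaled to the sequenced fragments of each library, as the authors deposited them. They were analysed as log2(FPKM + 1), so that changes of genes at low FPKM are understated. Tests covered the 19599 IDs whose mean in all 30 libraries reached 1 FPKM. FPKM totals lay between 801492 and 802729 at 8 h and between 832561 and 837797 at 4 h. Relative depth, read from ratios of the low values and scaled to average 1 over the 30 libraries, was 1.01 to 1.10 in the 8 h libraries and 0.933 to 1.00 in the 4 h libraries. The absolute depth in reads is unknown. Pearson correlations of log2 values across genes between replicates were 0.988 to 0.989 at 8 h and 0.987 for every pair at 4 h. The labels number 3 replicates per group without saying which plants went into each, so a p-value here reflects variation among libraries that may be partly technical.

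The largest rise of the step was that of Nitab4.5_0001229g0010. It stood at 143, 155 and 170 FPKM in K326 at 8 h, against 3.76, 6.68 and 13.6 FPKM at 4 h. The 8 h libraries lay close together and far above the 4 h libraries, which differed among themselves by more than 3-fold. The change on the log2 scale was 4.27 (SE 0.345, n = 3 each, limma adjusted p = 5.09e-10). Before the step the gene was low, with means at 0, 1, 2 and 4 h of 4.60 ± 2.59, 0.593 ± 0.161, 1.17 ± 0.978 and 8.01 ± 5.04 FPKM (SD, n = 3). No change from 0 to 4 h was called (log2 change 0.64, adjusted p = 0.145).

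Another gene had fallen before it rose. Nitab4.5_0000212g0150 stood at 174, 196 and 191 FPKM at 8 h, against 10.3, 10.8 and 13.5 FPKM at 4 h (log2 change 3.91, SE 0.226, limma adjusted p = 6.89e-13). At 0 h it stood at 33.3, 37.6 and 32.3 FPKM, above every library at 1, 2 and 4 h. Its means at 0, 1, 2 and 4 h were 34.4 ± 2.84, 11.7 ± 4.89, 7.70 ± 0.159 and 11.5 ± 1.71 FPKM (SD, n = 3). At 8 h its mean was 187 ± 11.6 FPKM, above the level at 0 h (log2 change from 0 to 8 h 2.41, adjusted p = 1.24e-09). The gene thus passed its starting level on the way back.

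On the log2(FPKM + 1) scale the largest falls were those of very abundant transcripts. That scale limits how far a gene at low FPKM can fall, so this ranking favours abundant genes. Nitab4.5_0000982g0190 stood at 17.8, 19.3 and 13.8 FPKM in K326 at 8 h, against 1707, 1907 and 1619 FPKM at 4 h. The log2 change was -6.61 (SE 0.241, limma adjusted p = 4.66e-17). Its means at 0, 1, 2 and 4 h had been 1740 ± 313, 1873 ± 617, 2287 ± 121 and 1745 ± 148 FPKM (SD, n = 3). No change from 0 to 4 h was called for it (log2 change 0.02, adjusted p = 0.964), so the whole fall lay after 4 h.

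Nitab4.5_0000982g0170 carries the same scaffold number in its ID. It stood at 25.3, 18.4 and 13.5 FPKM at 8 h, against 1384, 1494 and 1348 FPKM at 4 h (log2 change -6.18, SE 0.206, limma adjusted p = 7.53e-18). This gene had begun to fall by 4 h, with means at 0, 2 and 4 h of 2564 ± 329, 2438 ± 132 and 1409 ± 75.7 FPKM (SD, n = 3, log2 change from 0 to 4 h -0.86, adjusted p = 0.00144). Of the 15 tested genes with this scaffold number 3 fell at least 2-fold and 0 rose, where 1.81% of all genes tested fell. This scaffold number was looked at because of its named genes, and both are among the 3, so the count is a description only. The 3 fallen genes carry gene numbers between 170 and 200. Their means lay between 17.0 and 19.0 FPKM at 8 h and between 897.5 and 1745 FPKM at 4 h. Whether they are near-identical copies that share reads is not known from the files, so their separate levels are uncertain.

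**Figure D1:**
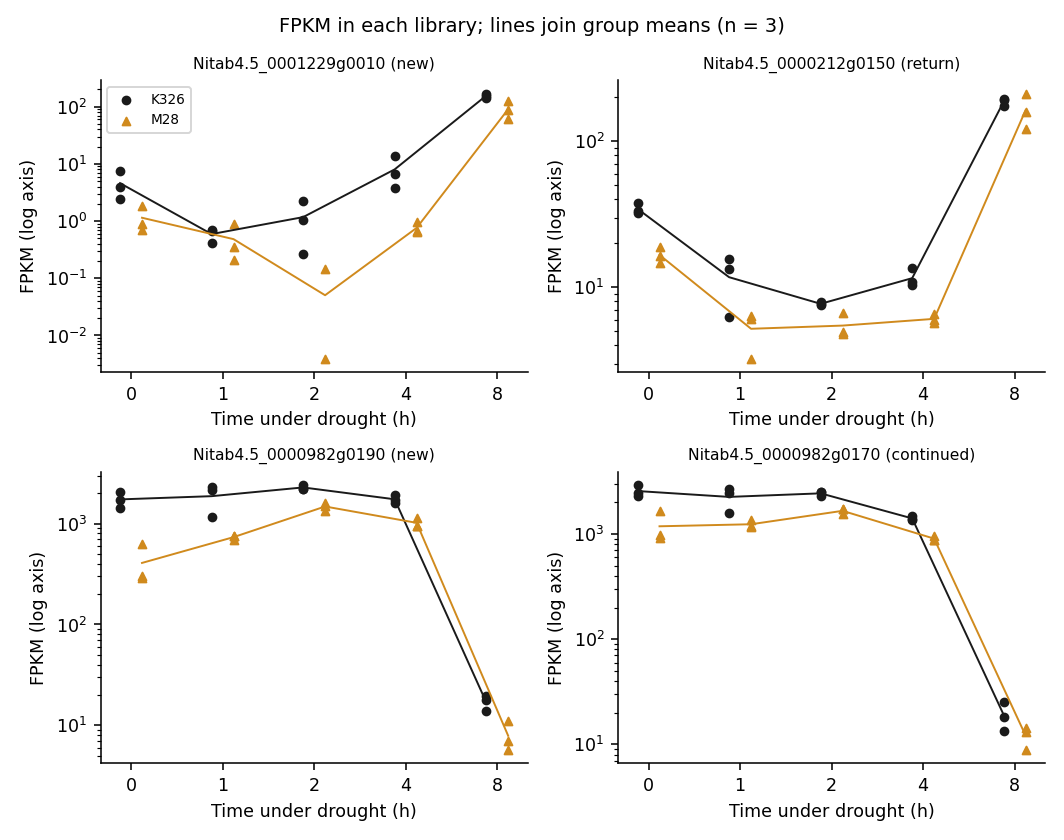
FPKM (log axis) of the 4 genes named for the step in every library of K326 (black circles) and M28 (orange triangles) at 0, 1, 2, 4 and 8 h, with lines through group means (n = 3); the time axis is not to scale, and the 1 value listed at 0 (Nitab4.5_0001229g0010, M28 at 2 h) is not drawn. The upper genes stand at 143 FPKM or more in K326 at 8 h, and the lower genes at 25.3 FPKM or less.

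Over all genes tested, 5479 of 19599 (28%) were called between 8 and 4 h at an adjusted p below 0.05, 3800 higher (19.4%) and 1679 lower (8.57%) at 8 h. Of these, 427 were at least 2-fold higher (2.18% of genes tested) and 354 at least 2-fold lower (1.81%). These 781 genes are the risen and fallen genes of the step. The libraries of the groups did not overlap for 425 of the 427 risen and 350 of the 354 fallen genes, against 44.6% of all genes tested. The split between higher and lower genes depended on scaling, also among genes changed at least 2-fold. Higher genes made up 69.4% of those called from the values as deposited and 77.2% once totals were made equal. They made up 49.6% when libraries were scaled by the median of ratios and 50.7% under quantile normalization. Of the genes called and at least 2-fold changed, 54.7% were higher as deposited and 60.6% with equal totals. That share was 43.7% under the median of ratios and 46.6% under quantile normalization. The typical gene shifted with these choices, with a median log2 change of 0.10 as deposited and 0.00 under the median of ratios. Of the 427 risen genes at least 334 stayed 2-fold higher under each of these scalings and after rescaling to equal totals outside the 100 most abundant genes, and of the 354 fallen genes at least 319 stayed 2-fold lower.

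Most of these changes were moderate. Of the risen genes, 49 rose at least 4-fold and 9 at least 8-fold on the log2(FPKM + 1) scale, with a median log2 change of 1.27. Of the fallen genes, 61 fell at least 4-fold and 23 at least 8-fold, with a median of -1.31. The weakest members on either side stood at log2 changes of 1.0008 and -1.0001, and the nearest called genes outside stood at 0.999 and -0.995. Few of the genes tested went between silence and expression. A gene expressed in few groups can miss the filter on the mean over all 30 libraries, so such genes may be undercounted. The counts were not repeated without that filter. Only 1 risen gene was below 1 FPKM in all 3 libraries at 4 h and at 5 FPKM or more in all 3 at 8 h, and 1 fallen gene did the reverse.

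**Figure D2:**
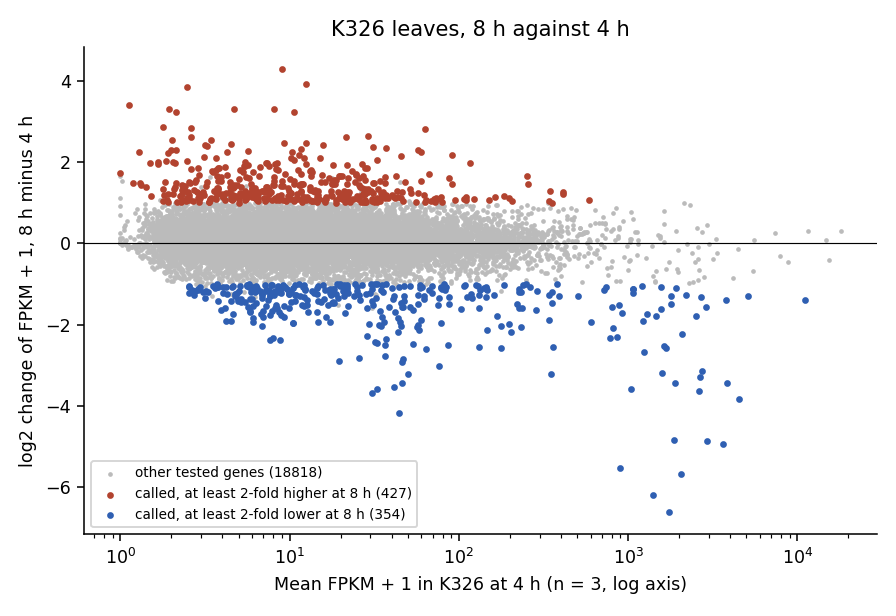
Change of each tested gene between 8 and 4 h (log2 of FPKM + 1) against its mean level in K326 at 4 h (log axis, n = 3). The 354 fallen genes (blue) reach -6.61 and extend to the most abundant transcripts, while the 427 risen genes (red) reach 4.27. The axis is the low side of risen and the high side of fallen genes. Median levels were 8.46 FPKM at 4 h and 25.05 FPKM at 8 h for risen genes, and 24.96 and 7.905 FPKM for fallen genes.

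For scale, the same test called 974 genes at least 2-fold changed in K326 from 0 to 1 h (4.97% of genes tested), 323 from 1 to 2 h (1.65%) and 267 from 2 to 4 h (1.36%), beside the 781 from 4 to 8 h (3.98%). Successive steps share libraries and differ in length, so these counts are set side by side and were not compared by a test.

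The fallen genes were far more common among abundant transcripts, classed by their mean over the 30 libraries. Most of those libraries were taken before 8 h, which favours genes high before 8 h in the upper classes. Of the 90 genes that averaged 1000 FPKM or more in all libraries, 34 fell at least 2-fold (37.8%) and 0 rose, and their median log2 change was -0.67. Of the 1092 genes between 100 and 1000 FPKM, 50 fell (4.58%) and 22 rose (2.01%). Among the 4999 genes between 1 and 5 FPKM the order was the opposite, with 46 fallen (0.92%) and 106 risen (2.12%). On the log2(FPKM + 1) scale a gene below 1 FPKM at 4 h cannot fall 2-fold, while a rise has no such limit. With a pseudocount of 0.1 FPKM 494 genes fell and 535 rose over all classes, and the counts by class were not repeated. The share that rose stayed between 2.01 and 2.23% in the 4 lower classes of level. Under quantile normalization 25 of the 90 most abundant genes fell and 7 rose at least 2-fold, and under the other 3 scalings 33 to 39 fell and 0 to 2 rose.

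**Figure D3:**
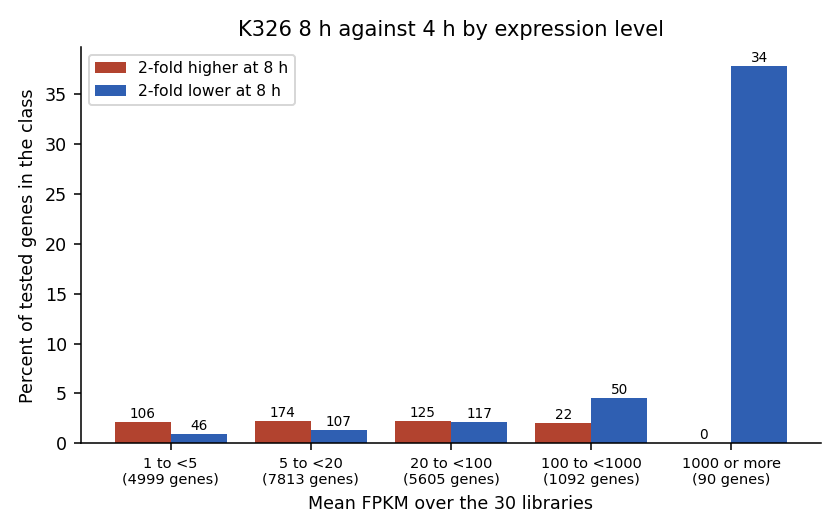
Percent of tested genes that were at least 2-fold higher (red) or lower (blue) in K326 at 8 h than at 4 h, by mean FPKM over the 30 libraries; numbers above bars are genes. In the class of 1000 FPKM or more 34 of 90 genes fell and 0 rose.

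The share of the deposited signal held by the fallen genes was smaller at 8 h. The 354 fallen genes together made up 3.65% ± 0.101 of all FPKM at 8 h and 13.4% ± 0.503 at 4 h (SD, n = 3 each). The 427 risen genes held 3.46% ± 0.235 at 8 h and 1.25% ± 0.0551 at 4 h. Both lists were chosen on these libraries, so the sums describe them and test nothing. The 34 fallen genes that averaged 1000 FPKM or more held 2.52% ± 0.0905 at 8 h and 10.2% ± 0.451 at 4 h. The 97 genes with a mean of 1000 FPKM or more at 4 h included 37 that fell at least 2-fold, and 6 of the 97 had a mean below 100 FPKM at 8 h. At 8 h 67 genes had such a mean, of which 1 had risen at least 2-fold.

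A list ranked on the mean of all 30 libraries, the compared ones among them, gave the same order. Most of the 30 were taken before 8 h, which favours genes that were high before then. A lower share at 8 h is therefore partly built into this list, and the test below is no independent support. The 100 genes of highest mean held 26.9, 27.0 and 26.4% of all FPKM at 8 h, against 33.8, 34.8 and 33.9% at 4 h. The groups did not overlap, and the difference of means was -7.36 percentage points (two-sided exact permutation test, p = 0.1, the smallest that 3 against 3 libraries can give). The value depended on the length of the list, at -0.53 points for the 10 most abundant genes and -5.58 points for the 1000 most abundant (exact permutation p = 0.1 each). Of the 100 genes 57 were called lower and 15 higher at 8 h, with a median log2 change of -0.63 against 0.10 for all genes tested. FPKM totals did not overlap either (802149 ± 622 at 8 h, 835272 ± 2623 at 4 h, exact permutation p = 0.1). Genes that reached 1 FPKM numbered 19275 ± 99.5 at 8 h and 19133 ± 16.9 at 4 h (exact permutation p = 0.1). Adjusted over the 3 measures each p-value was again 0.1. The difference in the number of genes was 142, and it was -4.67 after rescaling to equal totals outside the 100 genes (exact permutation p = 1), an alternative chosen after seeing the data. A bulk library cannot tell fewer cells expressing a transcript from less of it per cell.

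The 0 h libraries separated new changes from continued changes and returns. A change was called new when no change from 0 to 4 h was called, continued when that change had the same direction, and a return when it had the opposite direction. Of all genes tested 27.7% were called higher and 14.8% lower at 4 h than at 0 h. These contrasts share the 4 h libraries, in which a chance deviation moves a gene toward return. The counts are therefore given without a test.

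Of the 427 risen genes 164 were new (38.4%), 199 continued an earlier rise (46.6%) and 64 returned from an earlier fall (15%). The new risers had median levels of 5.10, 5.11, 4.59, 5.14 and 16.8 FPKM at 0, 1, 2, 4 and 8 h. The class rule itself keeps 0 and 4 h close, and single genes could move in between, as Nitab4.5_0001229g0010 of this class did. The continued risers started lower, with medians of 3.30, 6.59, 7.79, 11.2 and 38.2 FPKM over the same times. They held 5 of the 9 rises of at least 8-fold. Their median log2 change from 0 h was 1.07 at 4 h and 2.51 at 8 h.

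The 64 returning risers, among them Nitab4.5_0000212g0150, had median levels of 18.9, 10.8, 9.27, 8.00 and 20.7 FPKM over the 5 times. Their trough was therefore long, reaching from 1 to 4 h. At 8 h 31 of them were called above 0 h (41.5% of all genes tested), 5 below it (16.7%) and 28 not called. On the scaffold number of Nitab4.5_0000212g0150, 5 of 24 tested genes rose at least 2-fold and 0 fell, 3 of the 5 as returns, where 2.18% of all genes tested rose. On that of Nitab4.5_0001229g0010, 1 of 12 tested genes rose, which is the gene itself, and 1 fell. These scaffold numbers were looked at because of their named genes, which are part of the counts. The 5 risen genes on the scaffold number of Nitab4.5_0000212g0150 carry gene numbers from 10 to 330, so they are not a single run of neighbours. Their log2 changes lay between 1.08 and 3.91, with means between 6.94 and 275 FPKM at 8 h and between 1.77 and 56.5 FPKM at 4 h.

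Of the 354 fallen genes 122 were new (34.5%), 141 continued an earlier fall (39.8%) and 91 returned from an earlier rise (25.7%). The new fallers had median levels of 19.1, 23.9, 24.1, 18.0 and 5.91 FPKM over the 5 times. The upper quartile of this class was high, at 229 FPKM at 4 h and 58.0 FPKM at 8 h. It held 20 of the 34 fallen genes with a mean of 1000 FPKM or more, Nitab4.5_0000982g0190 among them. The continued fallers held the other 14, with Nitab4.5_0000982g0170, and the returns held 0.

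The median level of the continued fallers took the values 74.4, 55.8, 40.7, 30.9 and 6.84 FPKM over the 5 times. They held 16 of the 23 falls of at least 8-fold, and the new fallers held 6. The medians of the 91 returns rose and fell back, at 10.7, 16.4, 23.5, 33.2 and 11.1 FPKM. At 8 h 37 of the 91 genes were not called against 0 h. A further 24 were still called above it (41.5% of all genes tested) and 30 below it (16.7%).

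**Figure D4:**
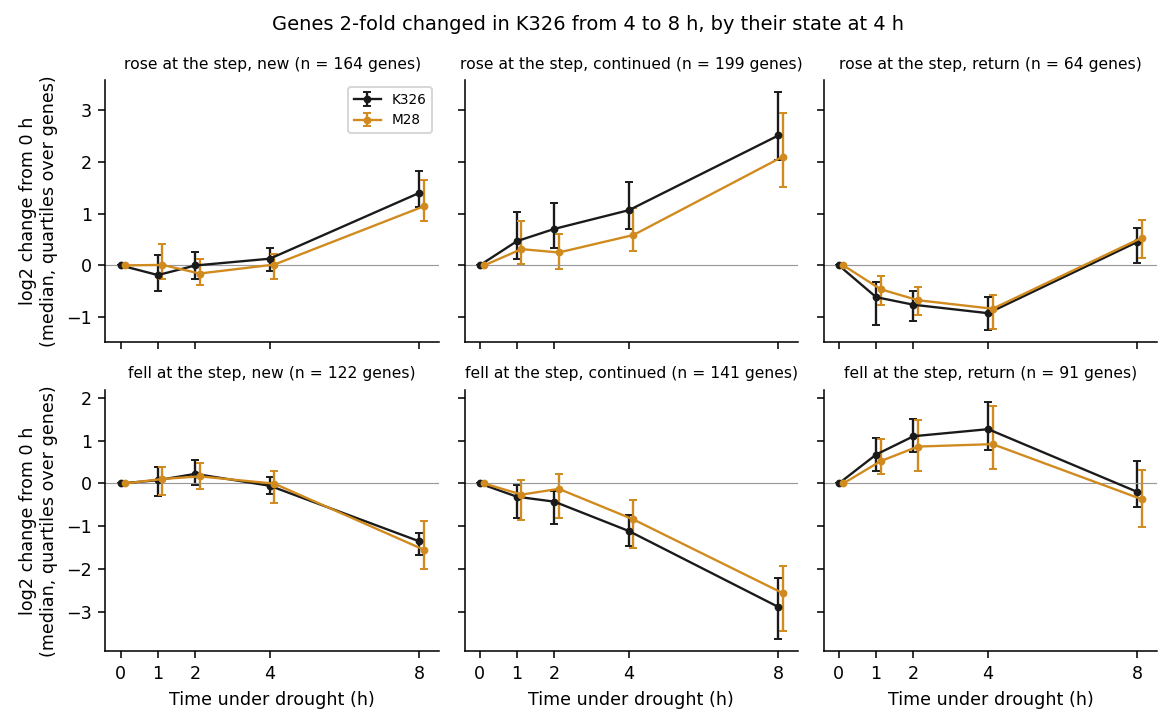
Median log2 change from 0 h (bars are quartiles over genes, not errors over libraries) at 0, 1, 2, 4 and 8 h for the 6 classes of genes that changed at least 2-fold between 8 and 4 h in K326, in K326 (black) and M28 (orange, drawn slightly to the right). The classes were chosen by contrasts of the K326 libraries at 0, 4 and 8 h. The M28 libraries entered that choice through the filter on level and the residual spread of each gene. New risers, chosen for no call between 0 and 4 h, reach a median of 1.40 at 8 h in K326, and returning fallers pass 1.27 at 4 h and stand at -0.20 at 8 h.

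The same step in M28 used no library of the K326 step. In M28 3544 genes were called higher at 8 h than at 4 h (18.1% of genes tested) and 2173 lower (11.1%), with 605 (3.09%) and 461 (2.35%) at least 2-fold. Of the 427 K326 risers 395 were called higher in M28, 0 lower and 32 not called. Of the 354 K326 fallers 327 were called lower, 0 higher and 27 not called. All calls used the residual spread of each gene from the fit of all libraries, which can raise such an overlap. Across the 19599 genes the K326 and M28 changes had a Pearson correlation of 0.835, a description over genes that share depth and scaling within libraries. The risers had median log2 changes of 1.27 in K326 and 1.33 in M28, and the fallers -1.31 in K326 and -1.41 in M28. The 604 genes changed at least 2-fold in the same direction in both genotypes were 77.3% of the K326 list and 56.7% of the M28 list of 1066 genes.

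The paths through 4 h were counted in M28 as well. Against 0 h, 19.9% of genes tested were called higher and 15% lower in M28 at 4 h. Of the 64 returning risers of K326, 45 were called lower in M28 at 4 h than at 0 h and then higher at 8 h than at 4 h. Of the 91 returning fallers, 63 were called higher in M28 at 4 h and then lower at 8 h. For continued genes these paths held for 119 of 199 risers and 101 of 141 fallers. For new genes, with no call at 4 h in M28, they held for 120 of 164 risers and 67 of 122 fallers. A path without a call at 4 h is common: 138 of the 164 new risers (84.1%) and 80 of the 122 new fallers (65.6%) had none in M28, against 65.1% of all genes tested. For the new fallers that share is the background.

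The genes named for the step moved the same way in M28. Nitab4.5_0001229g0010 stood at 60.0, 87.1 and 124 FPKM in M28 at 8 h, against 0.980, 0.640 and 0.661 FPKM at 4 h (log2 change 5.64, SE 0.345, limma adjusted p = 1.51e-12). Nitab4.5_0000212g0150 stood at 121, 158 and 212 FPKM, against 5.68, 6.54 and 5.99 FPKM (log2 change 4.51). The M28 libraries at 8 h spread more widely than those of K326 for both genes. Nitab4.5_0000982g0190 had 6.93, 5.69 and 11.0 FPKM in M28 at 8 h, against 958, 1144 and 954 FPKM at 4 h (log2 change -6.88). Nitab4.5_0000982g0170 had 13.0, 8.82 and 14.5 FPKM at 8 h, against 878, 950 and 883 FPKM (log2 change -6.14). For none of the 4 genes was the difference between the genotypes' steps called (adjusted p between 0.355 and 0.990 in limma). The differences K326 minus M28 were -1.37 (SE 0.488), -0.59 (SE 0.320), 0.27 (SE 0.341) and -0.04 (SE 0.292) in the order given. In M28 Nitab4.5_0000982g0190 had started lower, at 408 ± 192 FPKM at 0 h (SD, n = 3), and stood at 1019 ± 109 FPKM at 4 h.

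Whether the step differed between K326 and M28 was tested directly as the K326 change minus the M28 change. The difference was called for 37 of 19599 genes (0.189%), 18 with a higher change in K326 and 19 with a lower one, and for 1685 genes at an unadjusted p below 0.05. Leaving out any 1 of the 12 libraries lowered the count, to between 7 (without K326 4 h replicate 2) and 29 (without K326 4 h replicate 1). Of the 37 genes 9 belonged to the 781 genes changed at least 2-fold in K326. Among the 37, 12 rose in both genotypes by less in K326, 7 fell in both by less in K326, and 2 fell in both by more in K326. A further 6 fell and 4 rose in M28 with no call in K326, and 3 rose in K326 with no call in M28. The remaining genes were called in opposite directions, 2 of them rising in K326 and falling in M28 and 1 doing the reverse.

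Of the 4 genes named for the difference, 3 were near 0 FPKM in 1 of the genotypes and passed the filter on level through the other. Nitab4.5_0004097g0010 stood at 0.192 and 0.212 FPKM in K326 replicates 2 and 3 at 8 h and was listed at 0 in replicate 1, against 0.360, 1.15 and 1.16 FPKM in K326 at 4 h. In M28 it stood at 0.723 and 1.09 FPKM in replicates 1 and 2 at 8 h and was listed at 0 in replicate 3, against 9.32, 8.05 and 10.2 FPKM at 4 h. The log2 difference was 2.02 (SE 0.334, limma adjusted p = 0.00698). Nitab4.5_0000680g0150 was listed at 0 in 2 of 3 libraries of K326 both at 8 and at 4 h, with 0.235 FPKM in the remaining library at 8 h and 0.505 FPKM at 4 h. In M28 it stood at 1.40, 1.03 and 1.79 FPKM at 8 h, against 8.80, 6.47 and 9.55 FPKM at 4 h (log2 difference 1.85, SE 0.325, limma adjusted p = 0.0123). At such levels the log2(FPKM + 1) scale leaves little room for a fall in K326. Within that room Nitab4.5_0004097g0010 was called lower in K326 (log2 change -0.71, limma adjusted p = 0.0256). Nitab4.5_0000680g0150 was not called there (log2 change -0.095, limma adjusted p = 0.804). For both genes the size of the difference cannot be told apart from the higher level in M28 at 4 h.

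In the other direction, Nitab4.5_0001105g0110 stood at 12.1, 20.3 and 13.2 FPKM in K326 at 8 h, against 7.74, 5.25 and 9.03 FPKM at 4 h. In M28 it stood at 27.4, 22.3 and 30.3 FPKM at 8 h, against 2.39, 2.75 and 3.31 FPKM at 4 h (log2 difference -1.91, SE 0.405, limma adjusted p = 0.0418). The gene rose in both genotypes and by more in M28. Nitab4.5_0005395g0010 stood at 9.15, 7.44 and 7.72 FPKM in K326 at 8 h, against 16.1, 14.8 and 16.5 FPKM at 4 h. In M28 it stood at 1.48, 0.577 and 1.91 FPKM at 8 h, against 0.442, 0.408 and 0.148 FPKM at 4 h (log2 difference -1.65, SE 0.348, limma adjusted p = 0.0414). Nitab4.5_0005395g0010 was called lower in K326 (log2 change -0.89, limma adjusted p = 0.00769) and higher in M28 (log2 change 0.76, limma adjusted p = 0.0200). Its levels in M28 were near 0 FPKM, where a fall has little room, but the change called there was a rise. With a pseudocount of 0.1 FPKM none of these 4 differences was called. They were then 2.22, 2.20, -2.16 and -2.62, no smaller than before, with limma adjusted p-values of 0.490, 0.354, 0.115 and 0.0683 in the order given. Calls were also lost with 1 library left out. The differences then lay between -2.12 and -1.76 for Nitab4.5_0001105g0110 and between -1.91 and -1.47 for Nitab4.5_0005395g0010. They lay between 1.73 and 2.04 for Nitab4.5_0000680g0150 and between 1.71 and 2.24 for Nitab4.5_0004097g0010. The call for Nitab4.5_0001105g0110 was lost without any 1 of the 12 libraries of these 4 groups (limma adjusted p 0.0521 to 0.149). That for Nitab4.5_0005395g0010 was lost without any 1 of them but M28 8 h replicate 2 (limma adjusted p 0.0609 to 0.140). That for Nitab4.5_0000680g0150 was lost without M28 8 h replicate 2, M28 4 h replicate 1 or 3, K326 8 h replicate 3, or K326 4 h replicate 2 or 3 (limma adjusted p 0.0501 to 0.0573). The call for Nitab4.5_0004097g0010 held without each of the 12. M28 8 h replicate 3 was the shallowest of these libraries, at 0.482 in relative depth. Without it the differences of Nitab4.5_0001105g0110 and Nitab4.5_0005395g0010 were -1.81 and -1.47 (limma adjusted p = 0.097 and 0.108).

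**Figure D5:**
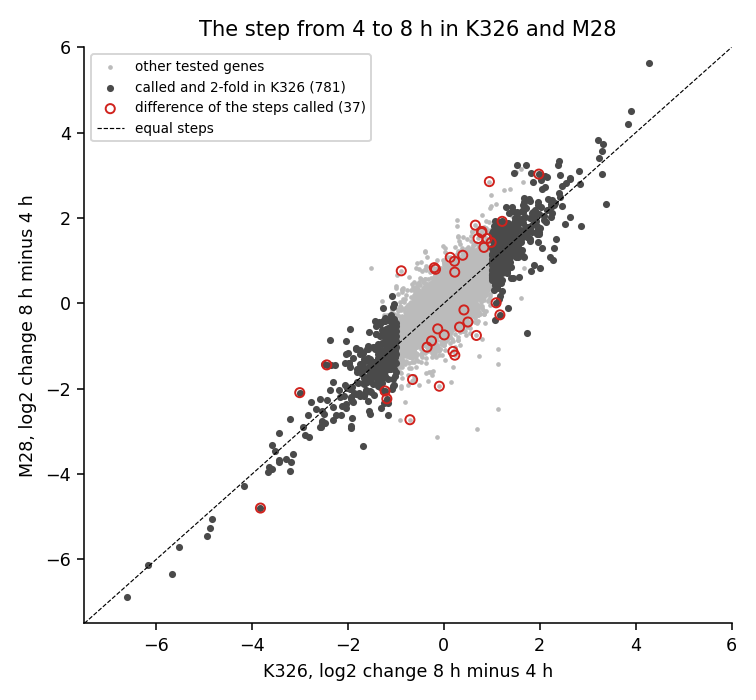
Change between 8 and 4 h (log2 of FPKM + 1) in K326 and in M28 for each tested gene; dark points are the 781 genes changed at least 2-fold in K326, red circles the 37 genes whose steps differed by test, and the dashed line marks equal steps. The genes follow the line with a Pearson correlation of 0.835 across genes.

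The IDs allowed a look at position, since each holds a scaffold number and a gene number. Of the 415 risen genes that had a tested neighbour by gene number on their scaffold, 38 had a neighbour that also rose at least 2-fold (9.16%). Of the 346 fallen genes with a neighbour, 36 had a fallen neighbour (10.4%). Over all 19154 tested genes with a neighbour the shares with a risen or a fallen neighbour were 3.72 and 3.05%. Each pair is counted from both of its genes: the 38 risen genes were 19 pairs, and the 36 fallen genes were 15 pairs and 2 runs of 3. No interval is given, since genes of a pair are not independent. The risen genes lay on 353 scaffold numbers, 298 of them with 1 such gene. Whether neighbours are near-identical copies that share reads was not tested.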

How the data were processed

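The members and lists were chosen with earlier results of these data known. Groups, times and replicate numbers come from the sample labels. The authors deposited 1 table of FPKM values with a column per library, unpooled, and its unit was taken from the table's name and its values. The submitters' processing notes list the tools HISAT2, featureCounts, Trimmomatic and FastQC. Their versions, how FPKM were computed and the build of the genome are not given in the sources used here. TPM over a larger gene set cannot be told from FPKM by the values.

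From this table log2(FPKM + 1) was computed and fitted with limma 3.58.1 in R 4.3.3. The fit held all 30 libraries in 10 groups (20 residual degrees of freedom, empirical Bayes with a mean-variance trend). P-values were adjusted by Benjamini-Hochberg over the genes tested within each contrast. Genes were called at an adjusted p below 0.05. The fit was tested on simulated data. Library measures were compared by exact permutation (scipy 1.17.1).

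Genes named for the step had an adjusted p below 0.05, a change of at least 2-fold, at least 5 FPKM on average on the higher side and libraries that did not overlap. In each direction the gene of largest change and the largest of another class were taken. For the difference of the steps the 2 largest in each direction were taken, by the same thresholds without the rule on overlap. Relative depth came from ratios of low values of 4493 genes, and 95.4% of library pairs followed 1 set of depths within 0.01 on the log2 scale. Alternatives covered the pseudocount, the filter, scaling, the samples fitted, the trend, a replicate block and leaving out each library. Lists of named marker genes were not tested because IDs carry no names.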

Additional observations from a re-analysis of the deposited data

Results flagged for a closer look

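The step from 4 to 8 h differed between the genotypes for 37 genes, by a test of the difference itself (limma, adjusted p below 0.05). The named genes among them had differences of the log2 change, K326 minus M28, of 2.02 for Nitab4.5_0004097g0010, 1.85 for Nitab4.5_0000680g0150, -1.91 for Nitab4.5_0001105g0110 and -1.65 for Nitab4.5_0005395g0010. Nitab4.5_0004097g0010 and Nitab4.5_0000680g0150 were near 0 FPKM in K326 and Nitab4.5_0005395g0010 in M28, which leaves little room for a fall there. Within these limits Nitab4.5_0004097g0010 was called lower in both genotypes, and Nitab4.5_0005395g0010 lower in K326 and higher in M28. For Nitab4.5_0004097g0010 and Nitab4.5_0000680g0150 the size of the difference cannot be told apart from the higher level in M28 at 4 h. Nitab4.5_0001105g0110 was not near 0 FPKM, with means at 4 and 8 h of 7.34 and 15.2 FPKM in K326 and 2.81 and 26.7 FPKM in M28. The calls were fragile: with a pseudocount of 0.1 FPKM none of these differences was called. Those for Nitab4.5_0001105g0110 and Nitab4.5_0005395g0010 were lost in 16 and 17 alternatives.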

How the results depend on the processing

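The 2-fold counts of the K326 step stayed within 1.5 times under all 16 alternatives, at 380 to 469 higher and 331 to 366 lower without a library. Their order depended on scaling, with 334 higher and 430 lower under median-of-ratios scaling, and 348 and 399 with quantile normalization. Genes called higher numbered 3800 as deposited, 2421 under median-of-ratios scaling and 2448 with quantile normalization. The new fallers numbered 203 with a pseudocount of 0.1 FPKM, and the new risers 102 with a filter at 5 FPKM, which tests fewer genes. The 37 genes with a difference between genotypes became 17 under median-of-ratios scaling, 93 under quantile normalization, 12 without the mean-variance trend and 7 to 29 without a library. The fewest, 7, came without K326 4 h replicate 2, and the most without K326 4 h replicate 1. The cause was not tested. The difference in genes at 1 FPKM became -4.667 after the added rescaling outside the 100 most abundant genes.

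Replicate numbers did not pair the libraries: same-numbered libraries at 8 and 4 h had deviations correlated between -0.176 and -0.0328 in K326 and between -0.0304 and 0.164 in M28. With a replicate block 3668 genes were called higher and 1643 lower in the K326 step, 434 and 359 at least 2-fold, and 28 differed between genotypes. The 4 genes named for the step were called under all 16 alternatives. Of those named for the difference, Nitab4.5_0004097g0010 lost its call in 1 of 22 alternatives, Nitab4.5_0000680g0150 in 7, Nitab4.5_0001105g0110 in 16 and Nitab4.5_0005395g0010 in 17. Depth limits the genes near 0 FPKM, for which no counting interval could be given.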
